A study of Macrobrachium rosenbergii with 9 samples.

Results

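Of the 21071 transcripts measured in testis, androgenic gland and ovary of Macrobrachium rosenbergii, the giant freshwater prawn, 97 stood at 200 or more CPM (read counts scaled to library size) in each of the 9 libraries. CPM here is the count of a transcript divided by the total count of its library, times 1000000, so it is a share of the library. The 97 were chosen by these values alone, whatever the differences between tissues, and are called the abundant transcripts. The libraries came from adult prawns of the strain labelled CMr1, 3 of male testis, 3 of male androgenic gland and 3 of female ovary, with no treatment named in the labels, and the study's title names regulators of sex determination as its question. Total counts ran from 7142794 to 11231573 per library. Whether the replicate libraries were made from different prawns is not in the labels, and the p-values below speak only of the spread among these libraries.

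In male prawns the androgenic gland secretes an insulin-like hormone that drives male differentiation, while testis and ovary produce the germ cells. Transcripts that are abundant in unlike animal tissues commonly come from genes that most cells need, such as those for ribosomal proteins, translation factors, the cytoskeleton and mitochondrial respiration. Which of the 97 belong to such genes could not be read from the data. The IDs are not paired with gene names, and none was found (0 matches) among the 31758 genes of the RefSeq table. The tissues could not be checked against markers, and each transcript is described by its ID, its length and the female or male label in the ID.

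The lists of transcripts at the minimum of 200 CPM overlapped in part between tissues. In every library of a tissue it was met by 359 transcripts in testis, 293 in androgenic gland and 670 in ovary. The 97 made up 27.0% of the testis list, 33.1% of the androgenic gland list and 14.5% of the ovary list. Testis and ovary shared 202 transcripts of their lists, 56.3% of the testis list and 30.2% of the ovary list. Androgenic gland and ovary shared 111, which is 37.9% and 16.6% of their lists, and androgenic gland and testis shared 149, which is 50.9% and 41.5%. A further 35 transcripts met the minimum in 8 of the 9 libraries, and androgenic gland 2 was the library that failed for 23 of them. Just inside the minimum, the lowest values were 201, 205 and 205 CPM, and just outside they were 198, 198 and 196 CPM. Without androgenic gland 2, 120 transcripts met it in the remaining libraries.

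**Figure D1:**
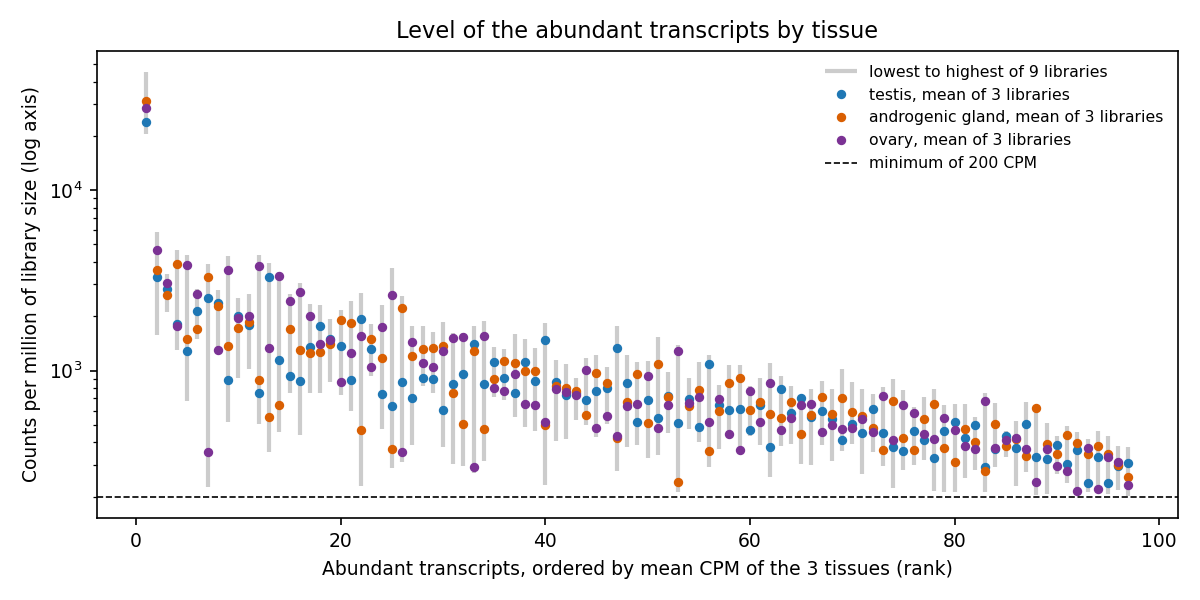
CPM of library size (log axis) of each of the 97 abundant transcripts, ordered by the mean of the tissue means. Points are the means of 3 libraries per tissue and grey lines run from the lowest to the highest of the 9 libraries; 1 transcript stands apart, with 20437 to 45205 CPM, and the highest value of any other is 5844, all above the dashed minimum of 200 CPM.

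One transcript stood far above the rest. transcript_HQ_Female_transcript15301/f9p0/1295 had 24961, 23074 and 23357 CPM in testis 1 to 3. In androgenic gland 1 to 3 it had 28460, 20437 and 45205 CPM, and in ovary 1 to 3 it had 23326, 31120 and 31138 CPM. The tissues overlapped, and its highest library, androgenic gland 3, was 2.21 times its lowest, androgenic gland 2. It was the most abundant transcript of testis 3 and of each ovary library, and ranked 9th or better in every other library. Its estimated counts had decimals in all 9 libraries. No difference between its tissues was called in the test described further on.

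Levels of different transcripts were compared per length, as counts divided by the deposited length and scaled to sum to 1000000 per library (TPM). On this scale the same transcript averaged 26997 TPM over the tissue means and the 97 ran from 87.9 TPM upward, with a median of 834. Next came transcript_HQ_Female_transcript23047/f4p0/923, at 1765 ± 677 TPM in testis, 1659 ± 512 in androgenic gland and 6026 ± 719 in ovary (SD, n = 3 each). Below it stood transcript_HQ_Female_transcript10621/f3p0/1707, at 2570 ± 1231, 2192 ± 1413 and 3992 ± 530 TPM in the same order (SD, n = 3 each). In CPM, both number 2 male libraries were low for this transcript of 1707 bases, at 1670 in testis 2 against 3882 and 4362 in testis 1 and 3, and at 1574 in androgenic gland 2 against 3361 and 5844. At 200 TPM in each library the list would hold 90 transcripts, of which 68 are among the 97.

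Together the abundant transcripts took between 8.75% and 14.5% of the counts of a library. Their share was 10.4% in testis 1, 9.83% in testis 2 and 12.1% in testis 3. It was 12.5%, 8.75% and 14.5% in the androgenic gland libraries and 11.9%, 13.1% and 12.8% in the ovary libraries, in number order. The tissue means were 10.8% ± 1.20, 11.9% ± 2.92 and 12.6% ± 0.611 (SD, n = 3 each), and the androgenic gland libraries spanned the values of every other library. Counting error alone was small, with 95% Wilson intervals of single libraries no wider than 0.0240 percentage points on a side. The transcript of 1295 bases alone took 2.04% to 4.52% of a library. The other 96 took 8.42% ± 1.22 in testis, 8.77% ± 1.80 in androgenic gland and 9.76% ± 0.187 in ovary. These shares were part of what chose the transcripts and were not tested. Within the 100 most abundant transcripts of a library, between 15 (testis 1) and 30 (ovary 1) were among the 97.

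**Figure D2:**
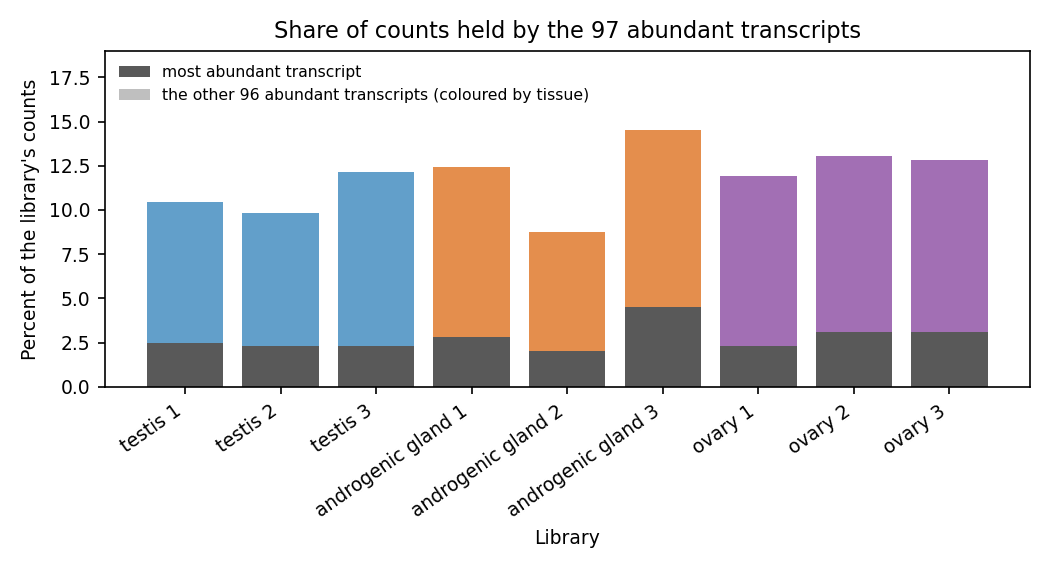
Percent of each library's counts held by the 97 abundant transcripts, 1 bar per library. The dark lower part is the transcript of 1295 bases and the coloured part the other 96; the bars run from 8.75% in androgenic gland 2 to 14.5% in androgenic gland 3.

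The length and the words and numbers in the IDs were not used to choose the transcripts. The male label was on 65 of the 97 (67.0%) and the female label on 32, whereas 29.9% of all transcripts had the male label. Among the 860 other transcripts that met the minimum in every library of at least 1 tissue, 51.6% had the male label. In testis, male label transcripts took 5.60% ± 0.928 of the counts against 5.20% ± 0.272, in androgenic gland 5.67% ± 1.34 against 6.24% ± 1.68, and in ovary 6.21% ± 0.116 against 6.40% ± 0.611 (SD, n = 3 each). The transcript of 1295 bases has the female label, and without it the other 31 of that label took 2.82% ± 0.303 in testis, 3.10% ± 0.462 in androgenic gland and 3.54% ± 0.160 in ovary (SD, n = 3 each). These are sums over 31 transcripts, beside sums over 65 for the male label, and do not compare levels per transcript. The word LQ was on 1 of the 97, and the rest had HQ.

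The shortest had 393 bases, the longest 6150 and the median was 1324, against 1511 over all transcripts. The deposited length equals the last number of the ID in 76 of the 97. Transcripts under 1000 bases made up 34.0% of the 97 and 26.9% of all, and those of 2000 bases or longer 30.9% and 30.1%. The 860 others at the minimum in at least 1 tissue were longer, with a median of 1810 bases, 15.8% under 1000 bases and 41.7% of 2000 or longer. Each ID also holds a number after the letter f. In the naming scheme of PacBio's long-read isoform software, which these IDs resemble, that number counts full-length reads behind a transcript. The sources used here do not say what it is. Its median was 7 in the 97 and 2 over all transcripts, and 44.3% of the 97 had 10 or more against 9.76% of all. For the other transcripts at the minimum in at least 1 tissue the median was 5 and the share with 10 or more 32.6%. The highest f number among the 97 was 563. Among the 97, those of the male label had a median f number of 10 and those of the female label 5, against 3 and 2 over all transcripts of these labels. Across the 97 the f number and the mean TPM had a Spearman rho of 0.41, while length and mean TPM had -0.69. The f number and length had -0.47, so the f number and length are not separate in these values. These are descriptions over transcripts of the same libraries, and TPM itself divides by length.

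**Figure D3:**
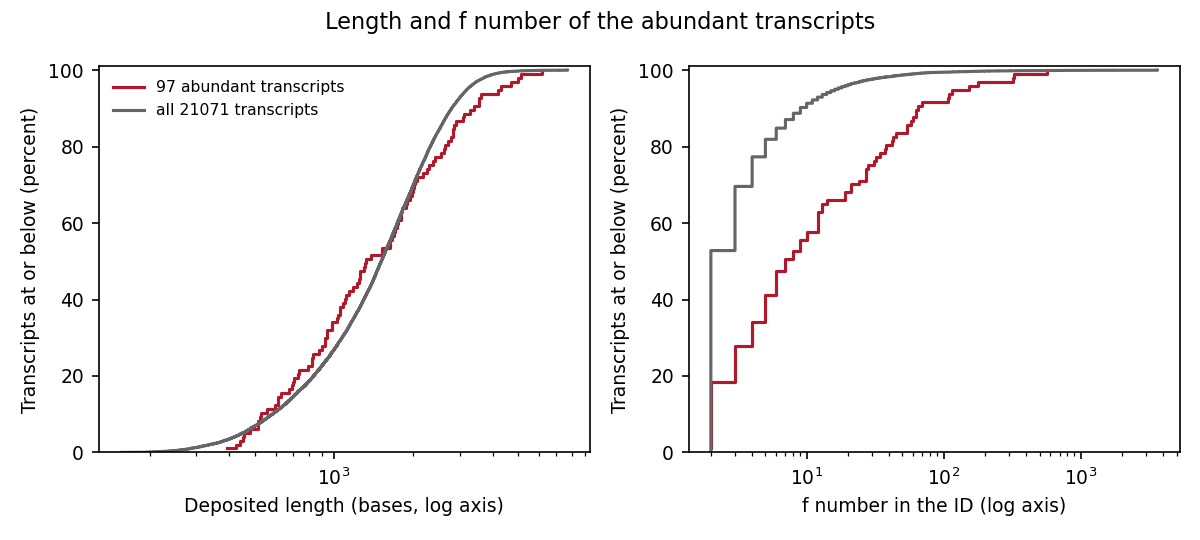
Percent of transcripts at or below a given deposited length in bases (left) and f number of the ID (right), both on log axes, for the 97 abundant transcripts and all 21071. The length curves have medians of 1324 and 1511 bases, while the f number curve of the abundant transcripts lies to the right, with medians of 7 and 2.

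Estimated counts have decimals where a counting tool divides a read between transcripts that it matches alike; the tool used is not named. Of the 97, 54 (55.7%) had decimals in all 9 libraries and 32 (33.0%) had whole numbers in all 9. Over the 17043 transcripts with enough counts to be tested these shares were 29.8% and 33.6%. In the 860 others at the minimum in at least 1 tissue they were 38.8% and 23.0%. If the decimals arose in that way here, the 54 are uncertain as single transcripts, as are those with decimals in some libraries. Several may then belong to 1 gene, and another division of such reads would move them.

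The abundant transcripts ranged from nearly level to widely spread between libraries. The highest of the 9 CPM values was 1.40 to 17.4 times the lowest, with a median of 2.79. It was under 2 times in 14 transcripts, over 4 times in 25 and over 8 times in 7. The steadiest was transcript_HQ_Male_transcript345/f6p0/3550, with 409, 435 and 448 CPM in the testis libraries, 462, 331 and 352 in those of androgenic gland and 422, 420 and 400 in those of ovary. All 3 tissues overlapped, and its counts were whole in all 9 libraries. The next was transcript_HQ_Male_transcript1381/f4p0/2631, which ran from 2119 CPM in testis 1 to 3415 in testis 2, a ratio of 1.61. Then came transcript_HQ_Female_transcript688/f3p0/3273, which ran from 267 CPM in ovary 2 to 435 in testis 3, a ratio of 1.63. With TMM scaling, described next, these steady transcripts were called higher in androgenic gland than in both gonads, and with library size in no comparison. Of the 14, 9 had the male label and 5 the female label, and their lengths ran from 515 to 3624 bases.

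Within a tissue the spread was smallest in ovary. The median SD of log2 CPM over the 97 was 0.160 for ovary, 0.375 for testis and 0.449 for androgenic gland. For the other transcripts at 200 CPM in all libraries of the tissue it was 0.171, 0.337 and 0.497 in the same order.

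Differences between tissues were tested with edgeR's quasi-likelihood test on all 17043 transcripts, with Benjamini-Hochberg adjustment, and a call needed an adjusted p under 0.05 and a change of at least 2 times in either direction. The libraries were scaled by TMM factors, which read a change relative to the bulk of transcripts. All 97 were among the transcripts tested. The rule set no difference between tissues, but its floor in every library limits how low a transcript can be in any tissue, so the shares called among the 97 are printed beside those of all transcripts and nothing is read from their contrast. In bulk tissue, fewer cells of a type and less RNA per cell cannot be told apart.

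Between the gonads of the sexes, 79 of the 97 abundant transcripts were not called. In ovary 10 were higher and 8 lower than in testis, 10.3% and 8.25% of the 97. Of all transcripts tested 46.1% were called, 26.5% as higher and 19.6% as lower. The median log2 fold change was -0.12 in the 97 and 0.08 over all transcripts. CPM did not overlap between ovary and testis in any of these 18. Over all of the 97, ovary lay wholly above testis in 27 (27.8%, all transcripts 37.9%) and wholly below in 19 (19.6%, all 24.2%). Scaling to library size without TMM factors called 9 of the 10 and 7 of the 8, beside 43.8% of all transcripts, 27.5% as higher and 16.3% as lower. The count of higher ones was sensitive to single libraries: it was 6 without testis 2 and 5 without testis 3, ovary 2 or ovary 3. That of lower ones was 4 without ovary 1.

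Among the transcripts higher in ovary, transcript_HQ_Male_transcript2241/f8p0/2299 had 3045, 3992 and 4388 CPM in ovary 1 to 3 and 828, 841 and 576 CPM in testis 1 to 3. Every ovary library was above every testis library, with a log2 fold change of 2.15 and a rough SE of 0.52 taken from the F statistic (edgeR, adjusted p = 0.0093). In androgenic gland 1 to 3 it had 1042, 1125 and 503 CPM, which overlapped with testis. For transcript_HQ_Female_transcript1504/f8p0/2904 ovary stood at 1732, 2442 and 3702 CPM and testis at 647, 665 and 592 (log2 fold change 1.87 ± 0.43, edgeR, adjusted p = 0.0068). Its androgenic gland values of 464, 356 and 288 CPM were the lowest of the 3 tissues in CPM of library size. With TMM its log2 fold change of androgenic gland over testis was 0.69, not called (edgeR, adjusted p = 0.21). The other 8 higher ones had lengths from 923 to 5137 bases and log2 fold changes from 1.01 upward, and 6 of the 10 had the female label. One of them, transcript_HQ_Female_transcript23047/f4p0/923, had 3348, 3745 and 4384 CPM in ovary and 682, 1815 and 1344 in testis. Ovary over testis, it stood 1.42 ± 0.44 higher on the log2 scale (edgeR, adjusted p = 0.027). That call was lost without testis 1, testis 3, ovary 2 or ovary 3 and with a term for the replicate number (adjusted p from 0.00039 to 0.077 over all alternatives).

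Among those lower in ovary, transcript_HQ_Male_transcript4077/f2p0/1874 had the widest range of the 97. Its ovary libraries stood at 428, 404 and 225 CPM, its testis libraries at 2775, 2927 and 1909, and its androgenic gland libraries at 3915, 2824 and 3173, so the highest was 17.4 times the lowest. Both male tissues were above ovary in every library and overlapped with each other, and the log2 fold change of ovary over testis was -3.06 ± 0.48 (edgeR, adjusted p = 0.0013). A shorter one, transcript_HQ_Female_transcript28427/f13p0/630, was also lowest in ovary. Ovary had 271, 281 and 324 CPM, testis 1087, 1356 and 1767, and androgenic gland 1568, 1032 and 1249 (ovary over testis, log2 fold change -2.42 ± 0.33, edgeR, adjusted p = 0.00068). These 2 higher and 2 lower transcripts were called in the same direction under each of 17 alternative settings, with adjusted p from 8.7e-26 to 0.045.

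The comparisons with androgenic gland depended on the scaling. TMM factors were 0.380 to 0.575 in androgenic gland and 1.27 to 1.58 in testis and ovary, so 200 CPM of library size equals 348 to 527 TMM-scaled CPM in androgenic gland but 127 to 158 in the other libraries. A transcript that takes a like share of each library is thereby higher in androgenic gland relative to the bulk of transcripts. With TMM, 80 of the 97 (82.5%) were higher and 1 lower in androgenic gland than in testis. Of all transcripts 42.9% were called, 16% as higher and 26.9% as lower. With library size alone 1 was higher and 6 lower, 90 were not called, and of all transcripts 53.3% were called, 3.32% as higher and 50% as lower. The median log2 fold change of the 97 was 1.53 with TMM and 0.10 with library size, against -0.28 and -1.52 over all transcripts. In CPM of library size 19 of the 80 did not overlap with testis, counted in either direction. Of these, the transcripts of 2840 and 2178 bases were called higher with TMM although their androgenic gland values lay wholly below testis. The others lay wholly above. For that of 2840 bases the values were 1873, 1493 and 1762 CPM against 1981, 2363 and 2076 CPM. Over all of the 97, androgenic gland lay wholly above testis in 17 (17.5%, all transcripts 5.09%) and wholly below in 12 (12.4%, all 52.9%). On TMM-scaled CPM it lay wholly above in 87 (89.69%, all 21.45%) and wholly below in 1 (1.03%, all 32.66%).

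The largest log2 fold change over testis was that of transcript_HQ_Female_transcript1674/f2p0/2860. Androgenic gland 1 to 3 had 2490, 2589 and 1607 CPM, testis 1 to 3 had 578, 1239 and 766, and ovary 1 to 3 had 367, 385 and 312. The 3 tissues did not overlap, and it was the only one of the 97 called higher than testis under both scalings, with a log2 fold change of 2.88 ± 0.50 with TMM (edgeR, adjusted p = 0.0022) and 1.35 ± 0.43 with library size (edgeR, adjusted p = 0.024). The next, transcript_HQ_Male_transcript10649/f6p0/825, had 877, 1379 and 1852 CPM in androgenic gland, 376, 658 and 770 in testis and 1721, 1132 and 1015 in ovary. It was above testis in every androgenic gland library but overlapped with ovary (androgenic gland over testis, log2 fold change 2.69 ± 0.45, edgeR, adjusted p = 0.0019). With library size its log2 fold change was 1.17 with an adjusted p of 0.060 (edgeR), so that call was lost. Among the most abundant per length, transcript_HQ_Female_transcript10621/f3p0/1707 was called higher than testis with TMM (edgeR, adjusted p = 0.049) but in only 6 of the 17 alternatives, with adjusted p from 0.0019 to 0.96.

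The transcript lower in androgenic gland with TMM was transcript_HQ_Male_transcript8265/f7p0/1217. It had 767, 354 and 529 CPM in androgenic gland, 3224, 2677 and 3942 in testis and 1151, 1372 and 1501 in ovary. In CPM of library size, testis was highest and androgenic gland lowest in every library. With TMM the log2 fold change was -1.14 ± 0.35 for androgenic gland over testis (edgeR, adjusted p = 0.028). Ovary over testis stood at -1.45 ± 0.35 (edgeR, adjusted p = 0.0094), and androgenic gland over ovary at 0.31, not called (edgeR, adjusted p = 0.46). The call against testis was lost without testis 3, androgenic gland 2 or androgenic gland 3, without both number 2 libraries and in the fit of those tissues alone, with log2 fold changes from -1.40 to -1.03 when single libraries were left out. With library size it was -2.60 (edgeR, adjusted p = 0.0014). The other 5 lower ones under library size had 897 to 2549 bases.

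Against ovary, 75 of the 97 (77.3%) were higher and 1 lower in androgenic gland with TMM, and 8 were higher and 12 lower with library size. Of all transcripts 59.5% were called with TMM, 20.1% as higher and 39.4% as lower, and 69.2% with library size, 6.76% and 62.4%. The median log2 fold change of the 97 was 1.67 with TMM and 0.06 with library size, against -0.65 and -2.18 over all transcripts. In CPM of library size 24 of the 75 did not overlap with ovary, again counted in either direction. Among these 24, the transcripts of 1051, 1139, 1658, 2039, 2626, 2840 and 5137 bases had androgenic gland values wholly below ovary. The others lay wholly above. That of 5137 bases had 1812, 1483 and 1819 CPM in androgenic gland and 2668, 2139 and 2436 CPM in ovary. Androgenic gland lay wholly above ovary in 17 of the 97 (17.5%, all transcripts 8.51%) and wholly below in 26 (26.8%, all 68.7%). On TMM-scaled CPM it lay wholly above in 84 (86.6%, all 25.43%) and wholly below in 3 (3.09%, all 46.73%). The comparison shares the androgenic gland libraries with the one against testis. All 8 transcripts higher with library size were also higher with TMM. They included transcript_HQ_Male_transcript4077/f2p0/1874 and transcript_HQ_Female_transcript1674/f2p0/2860, described above, with log2 fold changes over ovary of 4.87 ± 0.53 (edgeR, adjusted p = 0.00015) and 4.35 ± 0.54 (edgeR, adjusted p = 0.00026) with TMM and 3.23 and 2.65 with library size. The lower one with TMM was transcript_HQ_Female_transcript1504/f8p0/2904, at -1.18 ± 0.42 (edgeR, adjusted p = 0.036) and -2.83 with library size (edgeR, adjusted p = 0.00047). With TMM its call was lost without androgenic gland 1 or 3, without ovary 2 or 3, and in the fit of those tissues alone with or without a term for the replicate number.

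**Figure D4:**
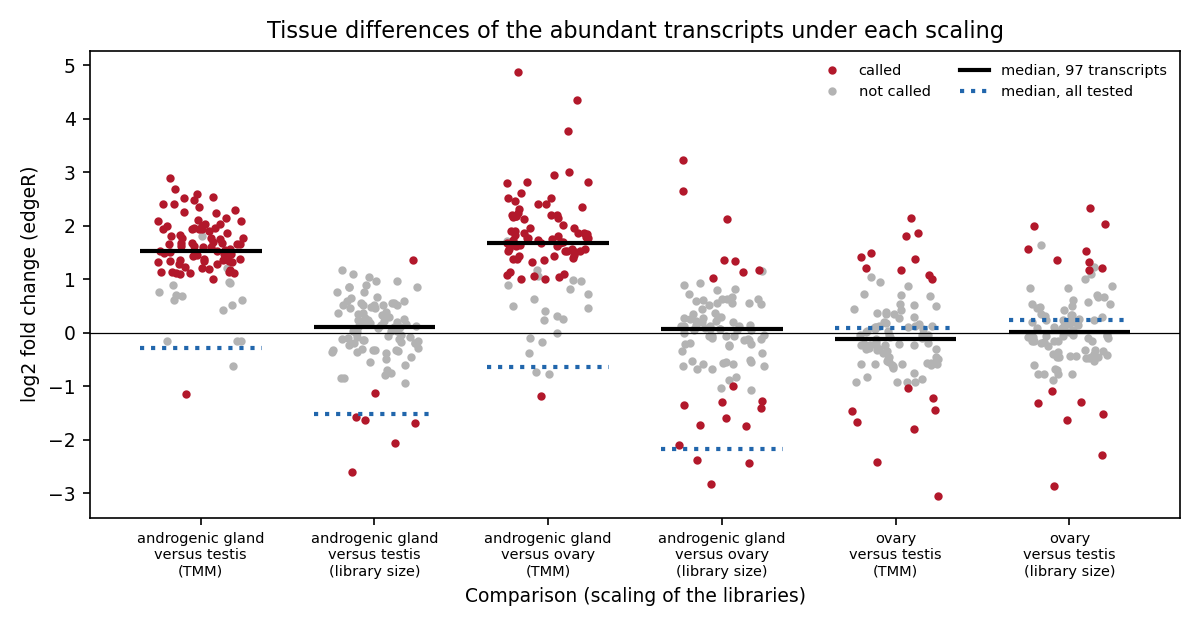
log2 fold change of each of the 97 abundant transcripts in the 3 tissue comparisons, with libraries scaled by TMM factors or by library size. Red points were called; the black line is the median of the 97 and the dotted line the median of all 17043 tested. With TMM the medians of androgenic gland over testis and over ovary lie at 1.53 and 1.67, and with library size at 0.10 and 0.06.

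The calls of the 3 comparisons were also read together, beside the share of all 17043 transcripts with the same pattern. With TMM, 61 of the 97 (62.9%, all transcripts 8.02%) were higher in androgenic gland than in both gonads with no call between the gonads. Another 8 (8.25%, all 1.79%) were higher in androgenic gland than in testis alone, and 5 (5.15%, all 3.05%) than in ovary alone. Higher than testis in both ovary and androgenic gland, with no other call, were 5 (all 2.10%). Both male tissues were higher than ovary in 7, of which 3 had no other call (3.09%, all 5.12%) and 4 were also higher in androgenic gland than in testis (4.12%, all 3.05%). No call in any comparison was made for 5 (5.15%, all 24.4%), the transcript of 1295 bases among them. For that transcript the log2 fold change of androgenic gland with TMM was 1.80 ± 0.72 over testis (edgeR, adjusted p = 0.073). Over ovary it was 1.71 ± 0.72 (edgeR, adjusted p = 0.066), and with library size these were 0.38 and 0.13. With library size 72 of the 97 had no call in any comparison (74.2%, all 19.1%), and the most frequent pattern among the rest, with 6 transcripts, was higher in ovary than in both other tissues (6.19%, all 16.8%). The floor of 200 CPM bears on these shares as it does on those of the single comparisons.

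The number 2 libraries of both male tissues were often the lowest of their tissue in CPM of library size, and less so with TMM scaling. Androgenic gland 2 was the lowest of its 3 libraries in CPM for 76 of the 97 (78.4%), against 51.5% of all tested transcripts. Testis 2 was the lowest of its 3 for 51 (52.6%), against 39.2%. In 49 (50.5%) both were lowest, against 25.1%. Ovary 2 was the lowest of its 3 for 12 of the 97 (12.4%), against 30.6%. On the log2 CPM scale, androgenic gland 2 lay below the mean of androgenic gland 1 and 3 by a median difference of -0.65, with -0.84 for the 33 transcripts under 1000 bases and -0.49 for the 64 longer ones. For testis 2 these median differences were -0.27, -0.48 and -0.12. With TMM-scaled CPM the median difference was -0.11 in androgenic gland, with -0.31 for the shorter and 0.038 for the longer transcripts, and -0.13 in testis, with -0.34 and 0.013. On that scale androgenic gland 2 was the lowest of its 3 for 44 of the 97 (45.4%, all tested 33.9%) and testis 2 for 46 (47.4%, all tested 35.3%). The calls with TMM were repeated without both libraries, a choice made after the data were seen. Then 77 of the 97 were higher and 0 lower in androgenic gland than in testis, beside 14.8% and 24.1% of all transcripts tested. Against ovary 77 were higher and 2 lower, beside 20.1% and 38.1%. In ovary 9 were higher and 9 lower than in testis, beside 26% and 18.3%.

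**Figure D5:**
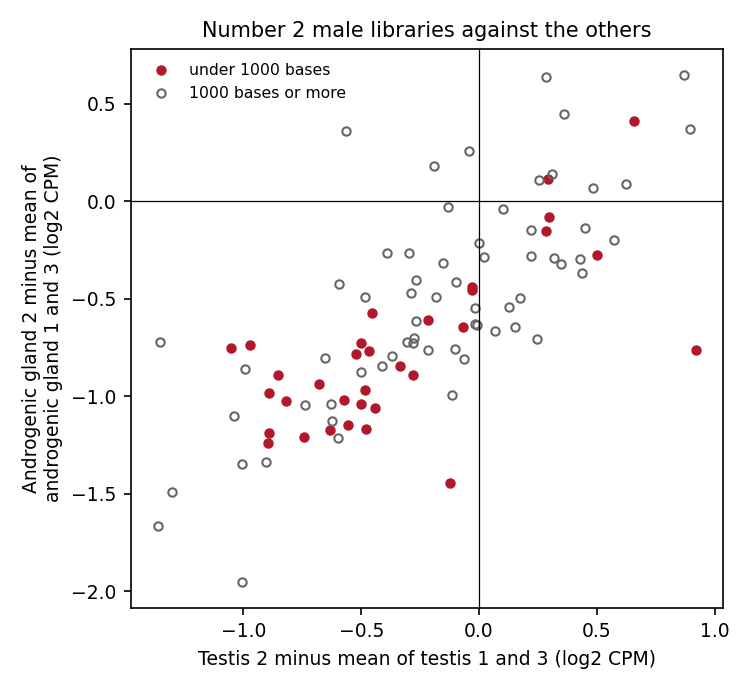
For each of the 97 abundant transcripts, the log2 CPM of library size of testis 2 minus the mean of testis 1 and 3 (x axis) and that of androgenic gland 2 minus the mean of androgenic gland 1 and 3 (y axis), by length class. Below 0 lie 68 points on the x axis and 84 on the y axis, with median differences of -0.27 in testis and -0.65 in androgenic gland.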

How the data were processed

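RNA was measured in 9 libraries. Per the labels' protocols, prawns were anesthetized on ice, tissues rinsed and frozen, and libraries made with a directional kit. Estimated counts and lengths of the transcripts were deposited in 1 table, per the file headers; 46.9% to 64.3% of a library's values were whole. The submitters' processing notes name Bowtie 0.12.2, DESeq 1.10.1 and a build, mm8, with no roles. Not given in the sources used here are the counting method, its strand setting and the origin of the transcripts.

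CPM used the column sums. For tests, expected counts were rounded to whole numbers and filtered with filterByExpr (minimum count 10, minimum total 15), and fitted with edgeR 4.0.16 in R 4.3.3, TMM factors, 1 mean for each tissue (residual df 6) and prior count 1. Dividing the size of a log2 fold change by the square root of its F gave the rough SE. Alternatives were DESeq2 1.42.0, other scalings, filters, samples and left-out libraries.

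The abundant transcripts, the groupings and the tests were chosen with earlier results of these data known. Named by ID are the 3 with the highest mean TPM, the 3 with the smallest ratio of highest to lowest CPM, and per comparison the 2 highest and 2 lowest called log2 fold changes without overlap in CPM. Others were described after their values were seen.

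Same-numbered libraries of testis and androgenic gland deviated together from their tissue means (r 0.29 to 0.42 across transcripts, other numbers at most -0.016), so the numbers were taken to pair these tissues; this comes from the data, not the labels. Those of ovary did not pair with either (at most 0.0086 with testis and 0.0030 with androgenic gland). Deviations from a mean of 3 libraries sum to 0, so values above 0 for the same numbers push those for other numbers below 0. The main fit left this pairing out, and a fit with a term for the replicate number is among the alternatives.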

Additional observations from a re-analysis of the deposited data

How the results depend on the processing

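The pairing of testis and androgenic gland by number left nearly the same counts there (replicate block: 81 higher, 1 lower). Of the 13605 transcripts tested in that fit, 2807 were higher and 3979 lower. For pairs with ovary, whose numbers are only shared, the replicate block gave 5 higher and 6 lower in ovary than in testis and 72 higher and 0 lower in androgenic gland than in ovary. Over all transcripts tested, 4209 were higher and 2737 lower of 16498 for ovary versus testis. For androgenic gland versus ovary 3167 were higher and 6187 lower of 15827. With library size in place of TMM factors, 1 was higher and 6 lower (median log2 fold change 0.10) for androgenic gland versus testis, and 8 and 12 (median 0.06) versus ovary. In a fit of only the tissues compared, 0 were lower in androgenic gland than in testis and 0 than in ovary (all transcripts: 3899 of 13605 and 6492 of 15827). Without both number 2 male libraries these were 0 and 2. DESeq2, its size factors, no filter on low counts, and adjusted p alone left every count within 1.5 times.

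Leaving out single libraries gave 70 to 78 higher and 0 to 1 lower for androgenic gland versus testis, 70 to 77 and 0 to 2 for androgenic gland versus ovary, and 5 to 10 and 4 to 9 for ovary versus testis. Of the 17658 to 17888 transcripts tested, 2279 to 2657 were higher and 4011 to 4551 lower for the first of these comparisons. For androgenic gland versus ovary they were 3036 to 3704 and 6355 to 7105, and for ovary versus testis 4051 to 4735 and 2571 to 3504. The medians of the 97 stayed within 1.47 to 1.62, 1.55 to 1.66 and -0.19 to -0.10 in that order. The list itself held 97 to 120 transcripts, taking 10.8% to 11.9% of counts in testis, 11.9% to 12.6% in androgenic gland and 12.6% to 13.9% in ovary. A minimum of 100 CPM gave 223 transcripts with 14.9%, 15.7% and 17.6% of the counts in testis, androgenic gland and ovary, and 400 CPM gave 39 with 6.90%, 8.29% and 8.90%. At 200 TMM-scaled CPM there were 102, of which 81 are among the 97. Where no reason is given, the cause was not tested.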
